A study of Mus musculus with 6 samples.

Results

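The genes described are 10 regulators of neural progenitors and glia: the Id genes Id1, Id2, Id3 and Id4, the Notch effectors Hes1 and Hes5, the receptors Notch1 and Notch2, and the transcription factors Sox2 and Sox9. They were taken by name, and all 10 had a value other than 0 in every library, out of 26562 such symbols among the 47593 listed. Wild-type mouse primary neurons from hippocampus were given microglial apoE particles or astrocytic apoE particles, 3 samples each, at 6 µg/mL on culture day 10 for 24 h, and their total RNA was sequenced. Apolipoprotein E (apoE) carries lipids between brain cells, and the study asked how its cellular source alters neuronal transcripts. No sample was of cells without particles, so every direction is microglial against astrocytic apoE. Whether replicates are separate cultures or animals is not stated in the labels, so p-values measure only the spread between these samples, which may be technical.

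Notch receptors are activated by ligands on a neighbouring cell, cut by ADAM proteases and then by gamma-secretase, and their freed intracellular domain joins the DNA-binding protein RBPJ and Mastermind coactivators to switch on Hes and Hey genes. Hes proteins repress proneural genes and hold progenitors back from differentiation. Id proteins, typical targets of bone morphogenetic protein (BMP) signalling through SMAD factors, have a helix-loop-helix but no DNA-binding region, and capture the E proteins that proneural factors need as partners. Sox2 maintains neural progenitors, and Sox9 specifies glia and remains on in astrocytes.

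Levels are the log2 values as deposited, on a scale common to the libraries, and the number of reads behind them is unknown. Summed 2^value rested on mitochondrially encoded genes for 5.71 to 5.77% with microglial apoE, against 6.46 to 7.92% with astrocytic apoE, where replicate 3 was the lowest of its group. Of 12 neuronal markers, all were tested and 5 fell with microglial apoE while 0 rose, with a summed 2^value of 89291 to 90545 in microglial apoE libraries, against 92495 to 93937 in astrocytic apoE libraries. Neuronal transcripts such as Map2 (14.53 with microglial apoE, 14.63 with astrocytic apoE) and Dcx (13.20 with microglial apoE, 13.23 with astrocytic apoE) were abundant. Astrocyte and progenitor transcripts were present as well, among them Gfap (11.92 with microglial apoE, 13.00 with astrocytic apoE), Slc1a3 (14.69 with microglial apoE, 14.59 with astrocytic apoE), Fabp7 (13.55 with microglial apoE, 13.95 with astrocytic apoE), Vim (13.71 with microglial apoE, 13.70 with astrocytic apoE) and Nes (11.24 with microglial apoE, 11.05 with astrocytic apoE), so the cultures held more than neurons. Slc1a3 was the 1 gene that rose among 14 tested astrocyte markers, of which 12 fell. The values are from bulk RNA, in which fewer cells of a type and less RNA per cell cannot be told apart.

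Promoter windows of the RefSeq table (GRCm38.p6) were found for 7 of the 10 genes, and Hes1, Id1 and Sox9 had none there. The 250 bases before the RefSeq start are shown for Hes5 and Id4, the windows that held both the core of the RBPJ site (TGGGAA, either strand) and the GC-rich element GGCGCC, reported as a SMAD site in Id promoters. Capitals mark these matches. The Hes5 window is chr4:154960673-154960922 and the Id4 window chr13:48260866-48261115, both on the plus strand.
Hes5: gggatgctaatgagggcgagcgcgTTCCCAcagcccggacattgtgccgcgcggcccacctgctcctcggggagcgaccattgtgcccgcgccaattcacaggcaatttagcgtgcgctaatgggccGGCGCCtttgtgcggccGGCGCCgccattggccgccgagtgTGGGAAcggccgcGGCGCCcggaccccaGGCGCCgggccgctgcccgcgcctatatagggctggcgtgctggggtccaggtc
Id4: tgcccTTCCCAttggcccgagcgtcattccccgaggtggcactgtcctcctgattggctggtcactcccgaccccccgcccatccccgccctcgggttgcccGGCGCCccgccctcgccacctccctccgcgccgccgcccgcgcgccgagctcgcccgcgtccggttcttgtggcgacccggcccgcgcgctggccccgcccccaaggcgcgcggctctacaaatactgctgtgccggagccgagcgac
The RBPJ core was found 2 times before Hes5, starting 226 bases (minus strand) and 82 bases (plus strand) before the start, and 1 time before Id4, 245 bases before it. Of all 32841 windows of this length, 21.6% held that core. GGCGCC, which reads the same on both strands, was found 4 times before Hes5, 1 time before Id4 and 1 time before Id2, and in 9.59% of all windows. The windows of Id3, Notch1, Notch2 and Sox2 held neither. The N box CACNAG, a site of Hes proteins, was found 1 time each before Id4, Notch1 and Notch2 (36.7% of all windows, either strand), and the E box CANNTG, a site of proneural factors and E proteins, 1 time each before Hes5 and Id2 (66.2%). Here "before" means before the RefSeq start, which for some genes differs from the GENCODE gene bounds given below. The windows of Notch1, Id2 and Id3 lie inside those bounds, and the window of Notch2 reaches into them. These are matches of letters and not measured binding.

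The Id and Hes families each held a gene that rose and a gene that fell. Id1, Hes1, Notch1 and Sox2 rose with microglial apoE, by 1.09-fold to 1.15-fold, while Id2 and Hes5 fell to 0.91-fold and 0.92-fold. Id3, Id4, Notch2 and Sox9 did not pass. Thus 4 genes rose and 2 fell at a Benjamini-Hochberg adjusted p under 0.05 in limma, while 13.0% of the 15055 genes tested rose, 11.8% fell and 24.9% changed either way. The rises made up 52.4% of all changed genes, a share of 34.8% to 65.6% under other scalings of the libraries, while the 6 calls among the 10 genes kept their direction under each scaling. The groups did not overlap for 9 of the 10, against 38.9% of all genes tested. The median log2 fold change of the 10 was 0.055, beside -0.00057 for all genes tested, and all 10 had passed the filter on low values, which asked for 2^value of at least 10 in at least 3 libraries. All changes were small, but the median absolute log2 fold change of the 3742 changed genes was itself 0.12.

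**Figure D1:**
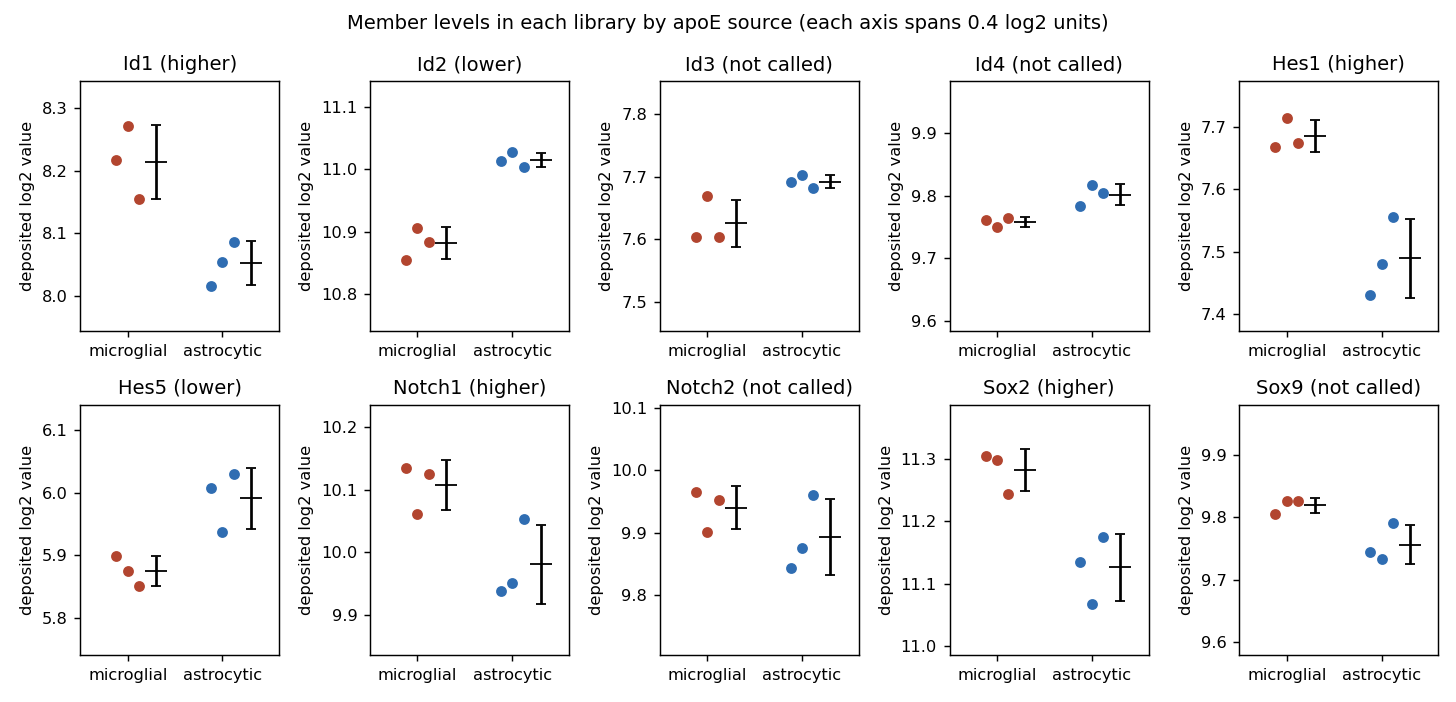
Deposited log2 value of each gene in each library (points), with mean and SD per group (black, n = 3), microglial apoE on the left and astrocytic apoE on the right of each panel. The points of the groups separate in 9 panels and overlap for Notch2, where astrocytic apoE replicate 3 lies at 9.96.

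Among the Notch receptors, Notch1 (protein-coding, GRCm38 chromosome 2, 26457903 to 26516663) stood at 10.13, 10.06 and 10.13 in the microglial apoE libraries, against 9.94, 9.95 and 10.05 in the astrocytic apoE libraries. The groups were separate by a gap of only 0.0073, since astrocytic replicate 3 lay just under the lowest microglial library. Notch1 rose by 0.13 ± 0.033 SE on the log2 scale (adjusted p = 0.0057 in limma), and this call was lost without astrocytic replicate 2 (0.11, adjusted p = 0.0502). Notch2 (chromosome 3, 98013527 to 98150361), the close relative of Notch1, had 9.97, 9.90 and 9.95 with microglial apoE, against 9.84, 9.88 and 9.96 with astrocytic apoE. Its groups overlapped and the difference did not pass (0.047 ± 0.032 SE, adjusted p = 0.31). Its log2 fold change was 0.022 without astrocytic replicate 1, 0.080 without astrocytic replicate 3 (adjusted p = 0.0502) and 0.028 after each library was centred on its median, and it passed in none of the 14 alternatives.

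Hes1 (chromosome 16, 30064384 to 30067796), which oscillates in progenitors and answers to Notch as well as other signals, had the greatest fold change of the 10. Its values were 7.67, 7.71 and 7.67 with microglial apoE, against 7.43, 7.48 and 7.56 with astrocytic apoE. All 3 microglial libraries lay above all 3 astrocytic libraries, among which replicate 3 was again the nearest. Hes1 averaged 7.69 ± 0.026 with microglial apoE and 7.49 ± 0.063 with astrocytic apoE (log2, SD, n = 3 each), a 1.15-fold rise (log2 fold change 0.20 ± 0.032 SE, limma adjusted p = 5.6e-05). Its absolute log2 fold change was above that of 95.4% of the genes tested.

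Hes5 (chromosome 4, 154960923 to 154962371), the effector held to depend most directly on Notch in neural progenitors, went the other way. It had 5.90, 5.87 and 5.85 with microglial apoE, against 6.01, 5.94 and 6.03 with astrocytic apoE, and every microglial library was below every astrocytic library. Hes5 fell by 0.12 on the log2 scale (SE 0.025, limma adjusted p = 0.0011). It was the lowest of the 10, and its values carry the least information: if 2^value were a count, counting alone would give its log2 fold change an SE of 0.15, larger than the change. The same figure was 0.085 for Hes1, 0.083 for Id3, 0.070 for Id1 and 0.024 to 0.040 for the others. How the deposited values were transformed is not given in the sources used here; a regularized logarithm, if it was used, would shrink differences and spreads at low levels. Exons of Gm20421 on the opposite strand cover 153 bases of the window printed above and 519 bases of Hes5 itself (2.50 in both groups). Opposite-strand exons also cover 1068 bases of Notch1 for 0610009E02Rik (2.66 in both groups) and 414 for Gm13568 (at 0). Over Id4 they cover 704 bases for A330033J07Rik (2.91 with microglial apoE, 2.93 with astrocytic apoE) and 761 for Gm49291, which has no value here. The strand setting of the counting is not given in the sources used here.

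Of the Id genes, only Id1 (chromosome 2, 152736251 to 152737410), the family member most closely tied to BMP signalling and to neural stem cells, was higher. It had 8.22, 8.27 and 8.15 with microglial apoE, against 8.02, 8.05 and 8.09 with astrocytic apoE, with no overlap. It rose 1.12-fold (log2 fold change 0.16 ± 0.033 SE, limma adjusted p = 6.8e-04). Id2 (chromosome 12, 25093799 to 25097140), which is also expressed in neurons, had 10.86, 10.91 and 10.88 with microglial apoE, against 11.01, 11.03 and 11.00 with astrocytic apoE. The astrocytic libraries lay close together (SD 0.012) and all above the microglial ones, and Id2 fell by 0.13 (log2 fold change, SE 0.027, limma adjusted p = 6.8e-04).

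Id3 (chromosome 4, 136143497 to 136145755), which is often expressed together with Id1, had 7.60, 7.67 and 7.60 with microglial apoE, against 7.69, 7.70 and 7.68 with astrocytic apoE. Its groups were separate by 0.013, and the difference of -0.066 ± 0.030 SE did not pass (limma adjusted p = 0.11). It passed after each library was centred on its median (-0.085, adjusted p = 0.035) and without microglial replicate 2 (-0.088, adjusted p = 0.049). Id4 (chromosome 13, 48261228 to 48266026), linked to the quiescence of hippocampal stem cells, had 9.76, 9.75 and 9.76 with microglial apoE, against 9.78, 9.82 and 9.80 with astrocytic apoE. These groups did not overlap either, but the difference of -0.044 ± 0.028 SE did not pass (adjusted p = 0.28).

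Sox2 (chromosome 3, 34650405 to 34652461) had 11.30, 11.30 and 11.24 with microglial apoE, against 11.14, 11.07 and 11.18 with astrocytic apoE. Its lowest microglial library was above its highest astrocytic library, and it rose 1.11-fold (log2 fold change 0.16 ± 0.030 SE, limma adjusted p = 3.7e-04). Sox2 lies within an intron of the long non-coding gene Sox2ot on the same strand, and Sox2ot did not pass (9.26 with microglial apoE, 9.23 with astrocytic apoE, adjusted p = 0.56). Sox9 (chromosome 11, 112782224 to 112787760) had 9.81, 9.83 and 9.83 with microglial apoE, against 9.74, 9.73 and 9.79 with astrocytic apoE. Its groups were separate by 0.014 and its difference of 0.063 ± 0.029 SE did not pass (adjusted p = 0.12). It passed without astrocytic replicate 3, the library nearest to the microglial ones (0.080, adjusted p = 0.041).

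**Figure D2:**
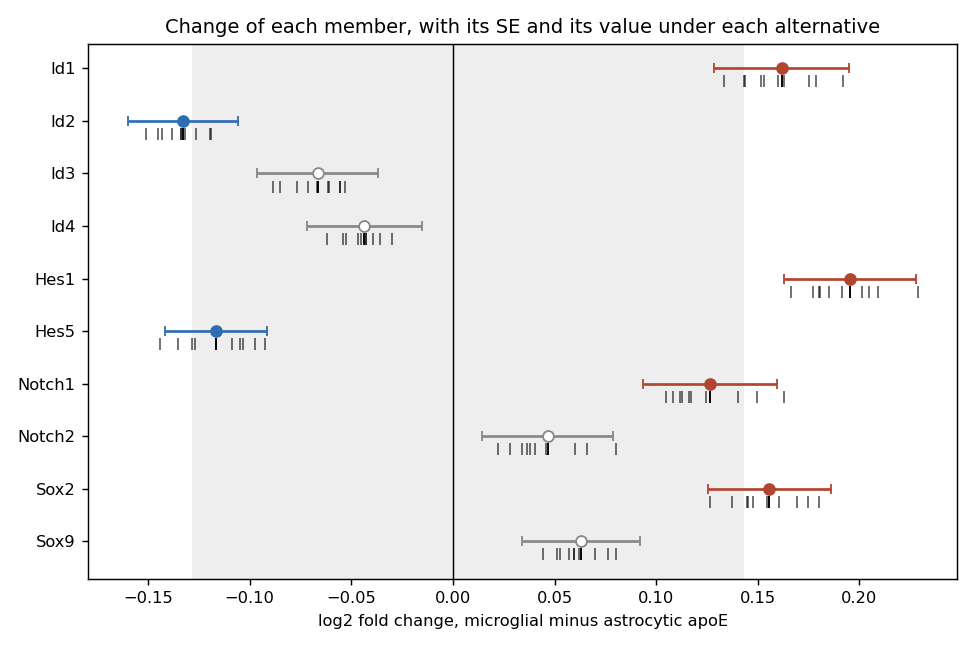
Log2 fold change of each gene, microglial minus astrocytic apoE (point, with SE; filled where the adjusted p was under 0.05), and its value under each alternative processing (ticks below it). The grey band holds the middle of all genes tested, from the 5th percentile (-0.13) to the 95th (0.14); Id1, Hes1 and Sox2 lie above it, Id2 just below it, and no tick crosses 0.

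Per kilobase of annotated exon, the level on the 2^value scale was highest for Sox2 (1211 with microglial apoE, 1087 with astrocytic apoE), followed by Id2 (774 with microglial apoE, 849 with astrocytic apoE). Id1 (256 with microglial apoE, 229 with astrocytic apoE), Id4 (225 with microglial apoE, 232 with astrocytic apoE) and Sox9 (219 with microglial apoE, 209 with astrocytic apoE) came next, then Id3 (110 with microglial apoE, 115 with astrocytic apoE) and Hes1 (101 with microglial apoE, 88.2 with astrocytic apoE). Notch2 (91.1 with microglial apoE, 88.2 with astrocytic apoE), Notch1 (77.5 with microglial apoE, 71.0 with astrocytic apoE) and Hes5 (43.0 with microglial apoE, 46.7 with astrocytic apoE) were the lowest. This order depends on the length of all annotated exons, and which of them these cells use was not measured. That length was 14232 bases for Notch1 and 10782 for Notch2, and before division by it Notch1 was the higher (10.11 against 9.94 with microglial apoE). Neighbours in this order overlapped between libraries only with astrocytic apoE, for Id4 with Id1 and for Hes1 with Notch2. With microglial apoE the libraries of Id1 were all above those of Id4, and those of Hes1 all above those of Notch2.

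The difference between relatives was also taken inside each library, which no scaling of the libraries can alter. Hes1 exceeded Hes5 by 1.81 ± 0.037 log2 units with microglial apoE and by 1.50 ± 0.065 with astrocytic apoE (SD, n = 3 each), a widening of 0.31. Id1 minus Id2 was -2.67 ± 0.054 with microglial apoE and -2.96 ± 0.041 with astrocytic apoE, so Id1 gained 0.29 on Id2 with microglial apoE. The change of Id1 also exceeded that of Id3 by 0.23 and that of Id4 by 0.21. Notch1 exceeded Notch2 by 0.17 ± 0.0065 with microglial apoE and by 0.087 ± 0.010 with astrocytic apoE, and here the SD was far below that of either receptor alone, since both were high in the same libraries. Sox2 exceeded Sox9 by 1.46 ± 0.042 with microglial apoE and by 1.37 ± 0.030 with astrocytic apoE. Of 9 such pairs 8 had groups that did not overlap, each with p = 0.10 in a two-sided exact permutation test (adjusted p = 0.11 over the 9 pairs). That p is the smallest that 3 against 3 samples allow, and the design cannot pass 0.05. The exception was Id3 against Id4, whose groups overlapped (-0.023, exact p = 0.40). The share over all pairs of genes was not taken beside this count. The Id pairs share genes, and 9 of the 10 genes did not overlap when taken singly, so the pairs are not independent.

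**Figure D3:**
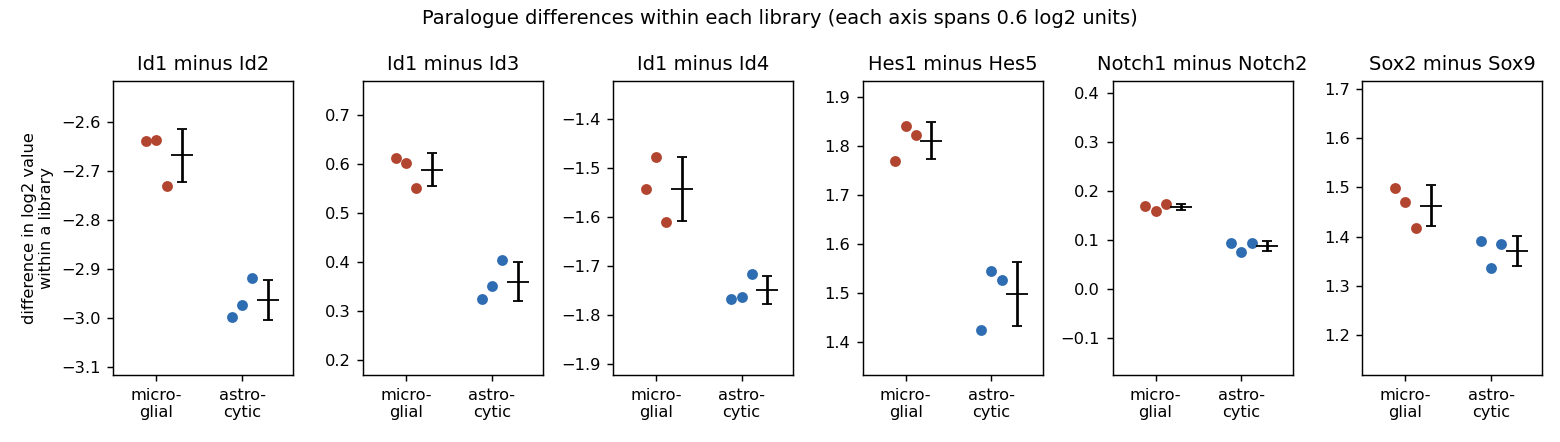
Difference in log2 value between relatives within each library (points), with mean and SD per group (black, n = 3), microglial apoE left and astrocytic apoE right. The groups separate in all 6 pairs drawn, most widely for Hes1 minus Hes5 (1.81 with microglial apoE, 1.50 with astrocytic apoE). Id3 minus Id4, whose groups overlap, is not drawn.

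Genes in the rest of the Notch pathway were also called in both directions. So were all genes tested, of which 13.0% rose and 11.8% fell, shares to be set beside each list count below. Of 8 ligands and ligand-like genes 1 rose and 1 fell (median 0.014): the non-canonical neuronal ligand Dner rose (0.086 ± 0.028 SE, limma adjusted p = 0.029), and the canonical ligand Dll1 fell (-0.13 ± 0.037 SE, adjusted p = 0.012). The call of Dner was lost in 7 of the 14 alternatives, among them median centring (adjusted p = 0.067), limma without its trend and robust options (0.061) and leaving out any library but astrocytic replicate 3 (0.0502 to 0.18). That of Dll1 was lost without microglial replicate 1 (-0.11, adjusted p = 0.074) and without astrocytic replicate 3 (-0.085, adjusted p = 0.067). Jag2, another canonical ligand, did not pass (0.059, adjusted p = 0.21). Of the other receptors, Notch3, known from mural cells and from quiescent neural stem cells, fell. It had 8.97, 8.94 and 8.94 with microglial apoE, against 9.20, 9.21 and 9.32 with astrocytic apoE (-0.30 ± 0.033 SE, adjusted p = 1.9e-07), opposite in sign to Notch1. Notch4 did not pass (-0.030, adjusted p = 0.25).

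Of 25 genes that process or traffic Notch and its ligands, 7 fell and 1 rose (median 0.0028). The Fringe glycosyltransferase Lfng, which tunes the choice of ligand, fell (-0.20 ± 0.033 SE), and the sheddases Adam10 (-0.12 ± 0.027 SE) and Adam17 (-0.11 ± 0.031 SE) and the gamma-secretase subunit gene Aph1b (-0.093 ± 0.029 SE) fell less. In the nuclear complex 2 of 13 tested genes rose and 1 fell (median 0.028): the Mastermind coactivators Maml1 (0.15 ± 0.032 SE) and Maml3 (0.11 ± 0.030 SE) rose, and the Groucho corepressor Tle3 fell (-0.10 ± 0.028 SE). Of 5 tested further Hes and Hey effectors 0 rose and 2 fell (median -0.0049). They were Hes6, which opposes Hes1 and favours differentiation (-0.16 ± 0.034 SE), and the Notch feedback inhibitor Nrarp (-0.048 ± 0.017 SE, at a level of only 4.68 with microglial apoE and 4.73 with astrocytic apoE). The call of Nrarp was lost in 8 of the 13 alternatives that tested it, with adjusted p up to 0.18: with equal sums of 2^value, limma without its trend and robust options, the replicate block, and leaving out any library but astrocytic replicate 2. That of Aph1b was lost without microglial replicate 1 or 3 or astrocytic replicate 1 or 2 (adjusted p 0.070 to 0.12), and those of Adam17, Maml3 and Tle3 in 1 alternative each, without astrocytic replicate 2, microglial replicate 1 and microglial replicate 3 in that order (adjusted p = 0.075, 0.052 and 0.051). Hey1 did not pass (0.064, adjusted p = 0.13).

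Of 13 tested BMP ligands and antagonists 1 rose and 3 fell (median -0.020), beside 13.0% and 11.8% of all genes tested. Bmp6 rose (0.12 ± 0.034 SE), while Bmp7 (-0.12 ± 0.025 SE), the activin antagonist follistatin (Fst, -0.21 ± 0.029 SE) and Fstl1 (-0.084 ± 0.027 SE) fell. Of 15 tested BMP receptors and SMAD genes 2 rose and 1 fell (median -0.0062), beside the same shares of all genes. The type I receptor Bmpr1a had 10.96, 10.96 and 10.98 with microglial apoE, against 11.18, 11.15 and 11.14 with astrocytic apoE, and fell by 0.19 (SE 0.027). The inhibitory SMAD gene Smad6 (0.065 ± 0.017 SE, at 4.79 with microglial apoE and 4.72 with astrocytic apoE) and the ubiquitin ligase Smurf1 (0.098 ± 0.028 SE) rose. The call of Bmp6 was lost without microglial replicate 2 or 3 or astrocytic replicate 2 (adjusted p 0.052 to 0.13), that of Smurf1 without microglial replicate 3 or astrocytic replicate 1 or 2 (0.057 to 0.10), and that of Fstl1 with equal sums of 2^value (0.061) and without microglial replicate 1 or astrocytic replicate 1 or 2 (0.054 to 0.12).

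None of the 3 E proteins that Id proteins capture passed: Tcf3 (0.021 ± 0.031 SE), Tcf4 (-0.0068 ± 0.028 SE) and Tcf12 (0.039 ± 0.028 SE) had limma adjusted p-values of 0.33 to 0.89, and unadjusted p was under 0.05 for 0 of them. Among 9 tested proneural and neuronal factors of the same helix-loop-helix class 2 rose and 4 fell (median -0.050). Neurod6 of pyramidal neurons fell by 0.47 (SE 0.031) and the neuronal differentiation factor Neurod1 by 0.15 (SE 0.031), and the oligodendrocyte factor Olig2 rose (0.15 ± 0.029 SE). Of 11 other tested Sox genes 2 rose and 2 fell (median 0.015). The rises were those of the nearest relatives of Sox2, Sox1 (0.13 ± 0.027 SE) and Sox3 (0.13 ± 0.034 SE). The nearest relatives of Sox9, Sox8 (-0.089 ± 0.031 SE) and Sox10 (-0.11 ± 0.018 SE), fell. Sox10 was at a level of only 4.78 with microglial apoE and 4.90 with astrocytic apoE. The call of Sox8 was lost in 7 of the 14 alternatives (adjusted p up to 0.20): with equal sums of 2^value, no filter, the replicate block, and without any microglial library or astrocytic replicate 2. That of Sox3 was lost without astrocytic replicate 1 (0.096, adjusted p = 0.068). Over the 10 pathway lists 33 of 104 tested genes (31.7%) changed, 11 higher and 22 lower, beside 24.9% of all genes tested.

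**Figure D4:**
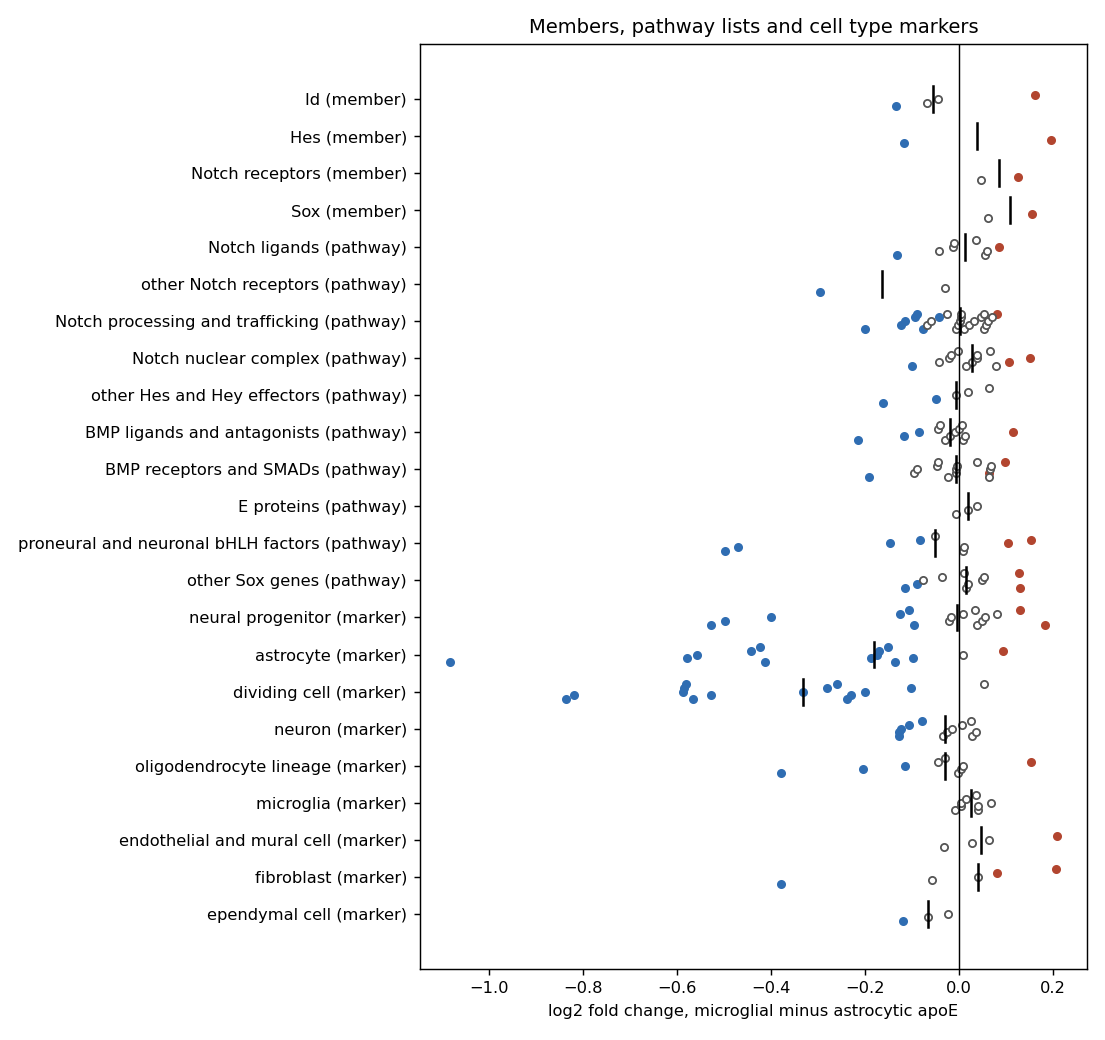
Log2 fold change, microglial minus astrocytic apoE, of every tested gene of each list (points; red higher and blue lower at adjusted p under 0.05, open not called), with the list median (bar). Most pathway lists have calls on both sides of 0, as do all genes tested (13.0% higher, 11.8% lower). Of the astrocyte markers 12 of 14 fell, and of the markers of dividing cells 14 of 15.

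Markers of astrocytes and dividing cells mostly fell with microglial apoE in the same libraries, and of those of progenitors more fell than rose. Of all genes tested, 13.0% rose and 11.8% fell. Of 16 neural progenitor markers 2 rose, 6 fell and 8 were not called (median -0.0037). Their summed 2^value was 35151 to 36410 with microglial apoE, against 39055 to 39878 with astrocytic apoE. That sum rests mostly on Vim, which did not pass (0.010 ± 0.029 SE), and on Fabp7 (13.55 with microglial apoE, 13.95 with astrocytic apoE). The intermediate filament nestin (Nes) rose by 0.18 ± 0.030 SE together with Sox1, whereas Fabp7 (-0.40 ± 0.026 SE) and Cdk1 (-0.53 ± 0.031 SE) fell. Of 14 tested astrocyte markers 12 fell and 1 rose (median -0.18), with a sum of 59860 to 60750 with microglial apoE, against 69283 to 69911 with astrocytic apoE, led by Gfap (-1.08 ± 0.026 SE). Of 15 markers of dividing cells 14 fell and 0 rose (median -0.33), with a sum of 4992 to 5047 with microglial apoE, against 6160 to 6222 with astrocytic apoE. The part of cell type in the members' changes was not tested.

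Markers of other cell types were counted and summed in the same way. Of 8 tested microglial markers 0 rose and 0 fell in limma, and unadjusted p was under 0.05 for 3; P2ry12, Tmem119 and Trem2 were under the filter, and the sum was 566 to 567 with microglial apoE, against 535 to 554 with astrocytic apoE. Oligodendrocyte lineage markers (1 of 9 rose, 3 fell) summed to 6610 to 6774 with microglial apoE, against 6504 to 6808 with astrocytic apoE. Endothelial and mural markers (1 of 4 tested rose, 0 fell) summed to 1423 to 1440 with microglial apoE, against 1257 to 1314 with astrocytic apoE. The largest term of that sum was Acta2, the gene that rose (9.98 with microglial apoE, 9.77 with astrocytic apoE). The endothelial genes Pecam1, Cldn5 and Cdh5 were under the filter. Fibroblast markers (2 of 5 rose, 1 fell) summed to 811 to 832 with microglial apoE, against 858 to 882 with astrocytic apoE. The gene that fell was Pdgfra (7.61 with microglial apoE, 7.99 with astrocytic apoE), also counted among the oligodendrocyte lineage markers. Col1a1 (0.21 ± 0.029 SE) and Col1a2 (0.082 ± 0.024 SE) rose, and the call of Col1a2 was lost in 3 of the 14 alternatives. Ependymal markers (0 of 3 rose, 1 fell) summed to 766 to 795 with microglial apoE, against 810 to 829 with astrocytic apoE.

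The pattern of Hes1, the gene with the largest absolute change of the 10, was most like that of Fth1 (ferritin heavy chain), Zmat3 (a p53 target), Wisp1, Gpc4 (a glypican) and Eif3b (a translation initiation factor), with Pearson r of 0.996 to 0.999 over the 6 libraries. All 5 were higher with microglial apoE, with log2 fold changes of 0.33 ± 0.065 SE for Fth1, 0.22 ± 0.032 for Zmat3, 0.074 ± 0.025 for Wisp1, 0.24 ± 0.032 for Gpc4 and 0.12 ± 0.028 for Eif3b. These coefficients include the difference between the groups. Among the other members, Id1 (0.951), Sox9 (0.948), Sox2 (0.908) and Notch1 (0.880) followed Hes1 most closely over the 6 libraries, and Id2 was the most opposite (-0.891).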

How the data were processed

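Total RNA of 6 samples was profiled, 3 per treatment, grouped by the treatment label. The deposited tables hold a log2 value per gene symbol, without a header. FastQC, HISAT2, featureCounts, DESeq2 and the build GRCm38 are listed, without roles, per the submitters' processing notes; versions, annotation release and strand setting were not given in the sources used. The same 21031 symbols were at 0 in all libraries and 0 symbols in only some, a property of a regularized logarithm, which is inferred and not stated. The read depth is unknown.

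The log2 values were fitted unchanged in limma 3.58.1 (R 4.3.3, trend and robust options, microglial minus astrocytic apoE, Benjamini-Hochberg over all 15055 genes that reached 2^value of 10 in at least 3 libraries). The fit was also run on simulated independent normal values, which cannot show effects of the transformation or of spread shared between libraries. Errors of fold changes are limma's moderated SEs, errors of levels SDs. Differences within a library were tested by exact permutation (scipy 1.17.1). Tables and figures used Python 3.11.15, numpy 2.4.6, pandas 2.3.3 and matplotlib 3.10.9. Coordinates are from GENCODE M21 (GRCm38), 1-based, and promoters from RefSeq (GRCm38.p6). The members, the 10 pathway lists and the 9 marker lists, the last 2 written from general knowledge, were chosen with earlier results of these data known. Named were all members, up to 4 tested genes of smallest p per list, and the 5 genes most correlated with the member of largest change; of marker lists only some are named, and for levels of cell types further markers, chosen after their values were seen (Dcx, Slc1a3, Vim). Some genes that the rule takes are counted but not reported by name. Alternatives changed the scaling, filter, variance model, a pseudocount of 16 on the 2^value scale, a replicate block, and left out each library.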

Additional observations from a re-analysis of the deposited data

How the results depend on the processing

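No member changed sign under any of the 14 alternatives, and the calls of Id1, Id2, Hes1, Hes5 and Sox2 passed under all of them. Notch1 did not pass without astrocytic replicate 2, and its log2 fold change was 0.105 to 0.163 with any 1 library left out. Id3 passed with median centring (-0.085) and without microglial replicate 2, with values of -0.088 to -0.055 over the left-out libraries, and Sox9 passed without astrocytic replicate 3 (range 0.051 to 0.080). Among the 15055 genes 3742 changed, 52.4% of them higher; 34.8% were higher with median centring (1478 higher, 2765 lower), 65.6% with equal sums of 2^value (2516 higher, 1318 lower) and 41.6% with that sum taken without mitochondrial genes (1661 higher, 2327 lower). With any 1 library left out, 2556 (without astrocytic replicate 2) to 4541 (without astrocytic replicate 3) changed. With the replicate block 3387 changed, and it altered no call among the 10 members; same-numbered libraries did not deviate together from their group means (r of 0.039, -0.12 and -0.19 across genes), so the numbers are not taken to pair them. With the sum made equal, 4 Notch processing genes fell in place of 7, and 5 BMP receptors and SMAD genes rose in place of 2. With a filter at 50 (Smad6 not tested), 1 BMP receptor or SMAD gene rose in place of 2. With median centring or equal sums without mitochondrial genes, 3 BMP receptors and SMAD genes fell in place of 1, and with no filter 2 fell. With median centring or plain limma 0 Notch ligands rose in place of 1; 0 Notch processing genes rose in place of 1 with median centring, equal sums without mitochondrial genes, or no filter; 1 further Hes or Hey effector fell in place of 2 with equal sums, a filter at 50 (Nrarp not tested) or plain limma; and 1 other Sox gene fell in place of 2 with equal sums, no filter, or a filter at 50 (Sox10 not tested). The within-family differences moved by less than 1 SD under a pseudocount of 16 and with any library left out. Read depth is unknown, so the precision that depth sets could not be given, least of all for weak genes such as Hes5, Nrarp, Smad6 and Sox10.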
